A study of Homo sapiens with 10 samples.

Results

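Long intergenic noncoding RNAs that carry LINC symbols were followed across a SET knockdown in 2 U2OS-derived lines, using every entry of the deposited gene tables whose symbol starts with LINC. LINC00326 and LINC00161 were left out by rule. Of 25593 entries, 129 were LINC entries with 128 distinct symbols, since LINC00102 is listed on both sex chromosomes. The 32 RNAs with FPKM (fragments per kilobase of transcript, scaled to the library's mapped fragments) of at least 1 in at least 2 of the 10 libraries are described here. Of the other 97 entries, 28 were listed at 0 in every library, 67 were above 0 but never reached FPKM 1, and 2 reached it in a single library. The study's title places its question in the genes that p53 and SET govern together.

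U2OS is a human osteosarcoma cell line. Both lines received a CRISPR/Cas9 construct and were chosen after clone identification, so each line is treated here as 1 clone, and a difference between the lines and a difference between clones cannot be told apart. The control-construct line is labelled p53 WT and gave 3 libraries with control siRNA and 3 with SET siRNA. The line labelled p53 KO gave 2 with each, and siRNA was left on for 96 h throughout. The study's design text describes a p53 knockout but gives SET as the gene that the CRISPR construct was aimed at. The terms WT-labelled and KO-labelled are therefore used for the lines. SET is a histone chaperone that also restrains a protein phosphatase. Libraries are labelled as biological replicates, and how far their cultures were kept apart is not stated. A p-value here therefore reflects only library-to-library spread, which may be technical.

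A long intergenic noncoding RNA is transcribed, usually spliced and polyadenylated, from its own promoter between protein-coding genes. Many such RNAs are low in abundance and restricted to few cell types, and their described roles include guiding chromatin factors, hosting small RNAs and binding microRNAs or proteins. A LINC symbol is provisional: several holders were later renamed, and some proved to encode small proteins. p53 is a transcription factor that switches on genes of cell cycle arrest and death, some noncoding RNAs among them.

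Between 13804 and 14153 genes reached FPKM 1 per library, and no libraries held identical values. SET mRNA was 124 ± 2.64 FPKM with control siRNA and 12.5 ± 0.656 with SET siRNA in the WT-labelled line, and 164 ± 8.22 and 14.9 ± 0.0302 in the KO-labelled line. CDKN1A, the p53-induced cell cycle inhibitor, was 162 ± 8.42 and 6.67 ± 0.231 FPKM with control siRNA in the WT-labelled and KO-labelled lines. Of 10 p53 target genes, all 10 were called lower in the KO-labelled line under each siRNA. For the labelled cell type, 6 of 8 mesenchymal and osteosarcoma markers were expressed, summed to 1243 to 2170 FPKM over the libraries, and were called lower with SET siRNA in both lines, while COL1A2 and TWIST1 were near 0. None of the 6 blood or 6 endothelial markers was expressed, with sums of at most 0.564 and 1.78 FPKM. Of 6 epithelial markers 3 were expressed, with a sum of 10.3 to 17.6 FPKM over the list. EPCAM was called higher with SET siRNA in both lines (log2 0.84 and 0.91), CDH1 higher in the WT-labelled line (0.26) and CLDN4 lower in the KO-labelled line (-0.50), and CDH1 and CLDN4 were lower in the KO-labelled line under each siRNA. The part of these marker shifts in the results below was not tested, and in bulk RNA fewer cells of a type and less RNA per cell cannot be told apart.

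The 32 RNAs came from 16 chromosomes and were low beside other genes, with a median of the mean FPKM of 3.79 against 11.6 over all 14813 entries tested. Of the 32, 6 had a mean of at least 10 FPKM, 7 lay between 5 and 10, 7 between 2 and 5 and 12 under 2. FPKM 1 was reached in all 10 libraries by 20. Low level cost precision: the authors' confidence interval had a median half-width of 18.6% of FPKM for these RNAs and of 9.02% for all tested entries. At the edge of the rule, LINC00173, LINC00471, LINC00319, LINC00340 and LINC00473 reached FPKM 1 in exactly 2 libraries. Just outside it, LINC00239 reached 1.40 in 1 KO-labelled library with SET siRNA and LINC00086 reached 1.10 in 1 KO-labelled control library. FPKM 1 was reached by 9 RNAs on 1 side of a comparison only, so the choice favours a difference there. LINC00471 passed through the KO-labelled SET siRNA group alone, and LINC00319, LINC00340 and LINC00473 through the WT-labelled control group alone. LINC00308 and LINC00115 passed through WT-labelled libraries alone, LINC00337 and LINC00341 through KO-labelled libraries alone, and LINC00173 through control siRNA libraries alone. Counts over the 32 therefore support nothing about LINC RNAs as a class.

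LINC00152, now named CYTOR and studied as a growth-promoting RNA in tumour cells, was by far the most abundant (chromosome 2, 87754974 to 87821037). Its FPKM in the WT-labelled line was 149, 150.5 and 135 with control siRNA and 134, 136 and 148 with SET siRNA. The KO-labelled values were 83.2 and 73.7, then 104 and 104. Every KO-labelled library lay below every WT-labelled library. It made up 33.5 to 47.9% of the FPKM summed over the 32 RNAs. That sum was 300.6 to 315 in the WT-labelled line under either siRNA, 220.1 and 240.2 in KO-labelled controls and 255 and 260.3 with SET siRNA there. LINC00162, or PICSAR, an RNA first described in cutaneous squamous cell carcinoma, followed with 18.4 to 31.2 FPKM. Next came LINC00460 at 8.55 to 19.1, LINC00094 at 11.6 to 15.1, LINC00339 at 9.78 to 14.5 and LINC00116 at 8.93 to 13.7. The ranges of LINC00460, LINC00094, LINC00339 and LINC00116 overlapped one another, so their order is not fixed.

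**Figure D1:**
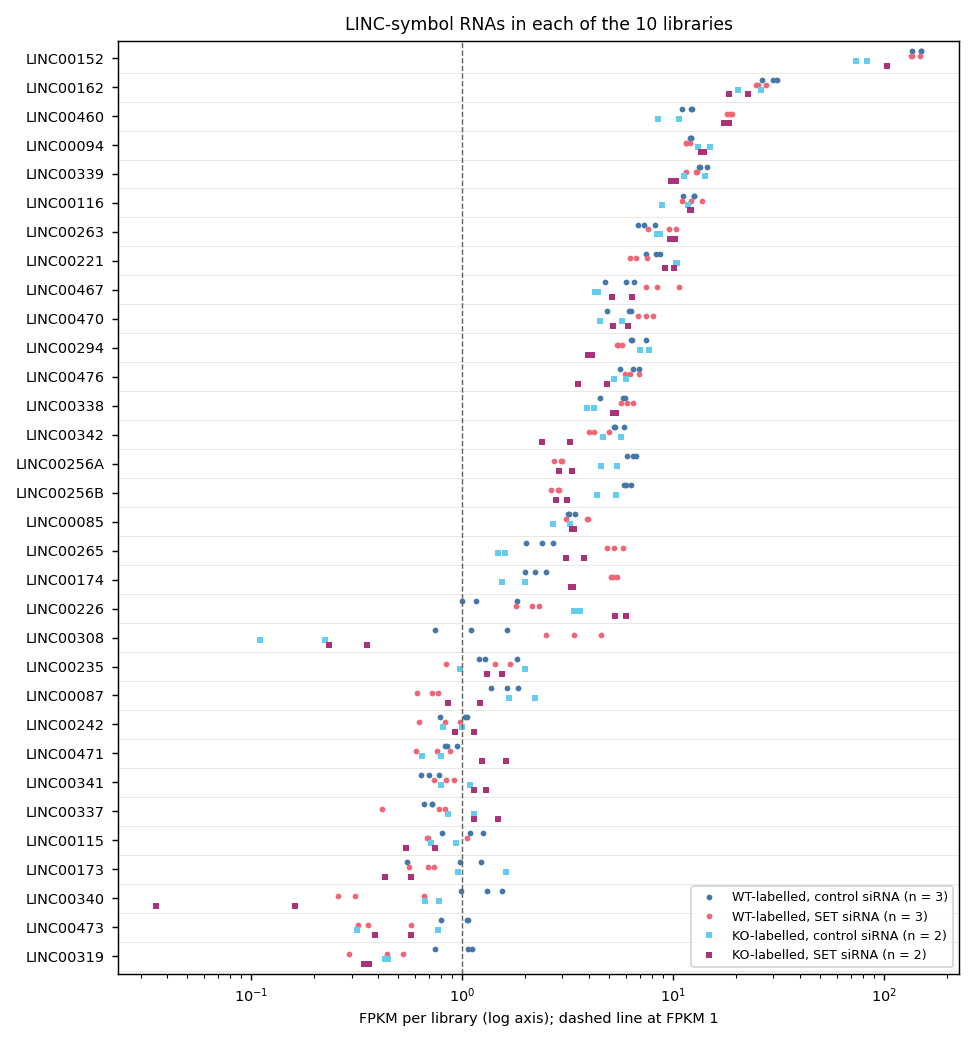
FPKM of the 32 LINC RNAs (rows, by mean level) in each library on a log axis, with symbols and colours for line and siRNA and a dashed line at FPKM 1. LINC00152 stands apart at 73.7 to 150.5 FPKM, and the KO-labelled libraries of LINC00308 and the KO-labelled SET siRNA libraries of LINC00340 lie below all their other libraries.

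The promoters of the RNAs that the results turn on show where each transcript starts and what those DNA stretches share. RefSeq on GRCh38.p14 gave a single current gene for 31 of the 32 symbols, and LINC00087 matched 2. The current genes of LINC00094 (BRD3OS), LINC00116 (MTLN), LINC00085 (SPACA6) and LINC00341 (SYNE3) are listed there as protein-coding. The window runs from 250 bases before to 50 bases after the start, printed 5′ to 3′ on the gene's strand. It is shown for LINC00265 and LINC00460, which rose in both lines, LINC00308, which had the largest rise in the WT-labelled line, and LINC00152. Capitals mark matches to the motifs searched.
LINC00265, chr7:39733318-39733617, + strand: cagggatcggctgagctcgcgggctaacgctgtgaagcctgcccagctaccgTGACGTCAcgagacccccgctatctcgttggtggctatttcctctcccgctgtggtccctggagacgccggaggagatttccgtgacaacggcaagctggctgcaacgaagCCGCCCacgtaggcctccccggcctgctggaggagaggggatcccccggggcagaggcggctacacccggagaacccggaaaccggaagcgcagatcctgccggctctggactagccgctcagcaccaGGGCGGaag
LINC00460, chr13:106376314-106376613, + strand: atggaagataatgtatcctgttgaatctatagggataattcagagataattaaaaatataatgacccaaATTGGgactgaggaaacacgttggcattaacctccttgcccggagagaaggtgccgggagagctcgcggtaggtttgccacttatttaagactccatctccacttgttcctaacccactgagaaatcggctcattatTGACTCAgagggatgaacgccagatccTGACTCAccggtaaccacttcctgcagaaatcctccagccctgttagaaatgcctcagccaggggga
LINC00308, chr21:22098367-22098666, + strand: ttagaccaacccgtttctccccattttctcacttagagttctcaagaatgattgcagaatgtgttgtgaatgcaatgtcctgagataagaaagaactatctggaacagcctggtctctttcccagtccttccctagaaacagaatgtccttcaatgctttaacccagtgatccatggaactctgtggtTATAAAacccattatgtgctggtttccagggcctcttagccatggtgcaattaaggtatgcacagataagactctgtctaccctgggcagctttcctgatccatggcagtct
LINC00152, chr2:87455177-87455476, + strand: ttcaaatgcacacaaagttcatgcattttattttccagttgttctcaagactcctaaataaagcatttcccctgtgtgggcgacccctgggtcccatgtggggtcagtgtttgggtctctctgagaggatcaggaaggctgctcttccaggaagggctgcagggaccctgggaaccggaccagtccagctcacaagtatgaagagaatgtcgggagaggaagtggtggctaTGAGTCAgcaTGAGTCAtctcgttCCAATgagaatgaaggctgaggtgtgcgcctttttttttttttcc
In LINC00265 the capitals are a cyclic AMP response element (TGACGTCA) and a pair of GC boxes (GGGCGG), in a window of 66.7% G and C. In LINC00460 they are a CCAAT box and a pair of AP-1 sites (TGANTCA), the sites of the Fos and Jun factors. LINC00308 holds a TATA box (TATAAA), 57 to 62 bases before the start. LINC00152 holds a pair of AP-1 sites within 19 bases before the start and a CCAAT box just after it.

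Motifs were searched on both strands in the 22 promoter windows of these RNAs that RefSeq gave and that belong to no host gene. AP-1 sites were present in 6 of 22 (27.3%), against 7.71% of all 35116 promoters of the same length: LINC00152, LINC00460, LINC00339, LINC00242, LINC00256A and LINC00263. The other shares were 11 of 22 against 45.0% for the GC box, 45.5% against 34.6% for the CCAAT box, 9.09% against 11.5% for the TATA box and 4.55% against 7.26% for the E-box (CACGTG). The cyclic AMP element was found in LINC00265 alone (4.55% against 1.85%), and the ATF4 and C/EBP element (TGATGNAA) in LINC00116 alone (4.55% against 3.62%). A p53 decamer match was found in LINC00263 alone (4.55% against 6.63%). These matches describe letters in a window and are not evidence of binding. RNAs with AP-1 matches went different ways with SET siRNA: LINC00460 rose and LINC00256A fell in both lines, and LINC00242 and LINC00263 were called in neither.

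SET siRNA changed 15 of the 32 RNAs in the WT-labelled line, 7 higher and 8 lower, which is 46.9% against 54.8% of all tested entries (30.8% higher, 24.0% lower). In the KO-labelled line it also changed 15, 7 higher and 8 lower, or 46.9% against 37.6% (19.8% higher, 17.9% lower). A call means an adjusted p below 0.05 in limma across all tested entries. The median change over the 32 RNAs on the log2(FPKM + 1) scale was -0.07 in the WT-labelled and 0.05 in the KO-labelled line, beside 0.04 and 0.02 over all tested entries. The median size of change regardless of direction was 0.23 and 0.31, beside 0.23 and 0.19. The comparisons in the 2 lines share no library but use a common estimate of the spread, so their calls are not independent. In both, 9 RNAs were called in the same direction, as were 24.5% of all tested entries. The 9 include the near-identical copies LINC00256A and LINC00256B. No RNA was called in opposite directions.

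LINC00265, LINC00174, LINC00460 and LINC00226 rose with SET siRNA in both lines. LINC00265 (chromosome 7, 39773167 to 39834222) measured 2.41, 2.71 and 2.02 FPKM with control siRNA and 5.80, 4.88 and 5.27 with SET siRNA in the WT-labelled line. Its KO-labelled libraries measured 1.49 and 1.61, then 3.11 and 3.79. Every SET siRNA library lay above every control library of either line. The rise was 2.24-fold in the WT-labelled line (log2 0.91, SE 0.0962, adjusted p = 5.9e-05) and 2.23-fold in the KO-labelled line (log2 0.80, SE 0.118, adjusted p = 0.00088). Its transcript holds a stretch of 38.9% that matches the GTF2IP20 pseudogene at 91.3% identity, so reads could have been shared with such copies and its level is uncertain.

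LINC00174, on the same chromosome at 65841031 to 65865395, moved with it. Its FPKM was 2.51, 2.22 and 1.99 with control siRNA and 5.45, 5.08 and 5.20 with SET siRNA in the WT-labelled line. KO-labelled cells had 1.98 and 1.55, then 3.38 and 3.28. All 5 SET siRNA libraries were above all 5 control libraries, and those of the WT-labelled line were the highest. The rise was 2.34-fold (log2 0.95, SE 0.0815, adjusted p = 1.64e-05) and 1.88-fold (log2 0.65, SE 0.0998, adjusted p = 0.00109). The difference between the lines was not called (0.30, adjusted p = 0.127).

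LINC00460, an RNA studied in several carcinomas (chromosome 13, 107028911 to 107030140), was at 11.03, 12.4 and 12.2 FPKM with control siRNA and 18.1, 18.7 and 19.1 with SET siRNA in the WT-labelled line. In the KO-labelled line it went from 8.55 and 10.7 to 18.6 and 17.6. SET siRNA libraries of both lines reached about the same level. The rise was 1.57-fold (log2 0.61, SE 0.0768, adjusted p = 0.000162) and 1.87-fold (log2 0.85, SE 0.0940, adjusted p = 0.000194).

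LINC00226 lies in the immunoglobulin heavy chain region (chromosome 14, 106744269 to 106744966) and is set apart by its level between the lines. With control siRNA it was at 1.16, 1.00 and 1.83 FPKM in the WT-labelled line and 3.41 and 3.61 in the KO-labelled line. With SET siRNA it was at 1.81, 2.16 and 2.31, and 5.34 and 6.01. Every KO-labelled library exceeded every WT-labelled library, while the siRNA groups of the WT-labelled line overlapped. The authors' intervals imply only 6 to 15 fragments per WT-labelled library and 23 to 50 per KO-labelled library. The rise with SET siRNA was 0.42 (SE 0.125, adjusted p = 0.0184) and 0.56 (SE 0.154, adjusted p = 0.0182) on the log2 scale. In the WT-labelled line the call was lost without control library 1 or 2 or SET siRNA library 2 or 3 (adjusted p = 0.0608, 0.0657, 0.0526 and 0.0616). In the KO-labelled line it was lost without control library 1 or 2 or SET siRNA library 2 (0.0640, 0.0547 and 0.102).

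LINC00256A, LINC00256B, LINC00340, LINC00087 and LINC00294 fell with SET siRNA in both lines. LINC00256A and LINC00256B are now FAM225A and FAM225B, neighbouring copies on chromosome 9 (115875176 to 115882126 and 115867003 to 115873957). The LINC00256A transcript matches its partner over 99.3% of its length at 98.4% identity, so the pair cannot be counted as separate observations. In RefSeq on GRCh38.p14 they start 1219 bases apart and run away from each other. Their promoter windows are identical at 186 of 322 aligned columns (57.8%), and the likeness sits at the start itself: the capitals mark the longest shared run, 54 bases from 4 bases before the start to the window's end.
LINC00256A, chr9:113112646-113112945, + strand: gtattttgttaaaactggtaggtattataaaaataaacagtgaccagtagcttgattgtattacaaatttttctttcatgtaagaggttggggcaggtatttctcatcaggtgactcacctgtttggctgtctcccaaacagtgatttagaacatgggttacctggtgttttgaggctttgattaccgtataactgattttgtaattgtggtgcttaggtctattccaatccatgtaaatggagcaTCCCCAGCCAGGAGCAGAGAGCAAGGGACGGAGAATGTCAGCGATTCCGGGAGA
LINC00256B, chr9:113111628-113111927, - strand: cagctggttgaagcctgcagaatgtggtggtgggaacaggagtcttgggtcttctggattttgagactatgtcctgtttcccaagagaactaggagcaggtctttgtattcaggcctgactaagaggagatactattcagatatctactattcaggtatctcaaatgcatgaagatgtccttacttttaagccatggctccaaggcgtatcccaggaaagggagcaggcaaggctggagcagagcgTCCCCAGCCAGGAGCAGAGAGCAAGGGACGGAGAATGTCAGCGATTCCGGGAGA
LINC00256A was at 6.46, 6.06 and 6.68 FPKM with control siRNA and 2.74, 2.94 and 3.00 with SET siRNA in the WT-labelled line. KO-labelled libraries gave 5.45 and 4.57, then 3.33 and 2.89. The groups did not overlap in either line. It fell 2.21-fold (log2 -0.93, SE 0.0746, adjusted p = 1.15e-05) and 1.61-fold (log2 -0.55, SE 0.0914, adjusted p = 0.00172). LINC00256B gave nearly the same values, 6.08 ± 0.226 to 2.79 ± 0.125 FPKM (SD, n = 3 each) and 4.86 ± 0.711 to 2.98 ± 0.248 (n = 2 each). The larger fall in the WT-labelled line was not called for either copy (difference -0.38, adjusted p = 0.0522, and -0.35, adjusted p = 0.0707). Without KO-labelled control library 1 it passed for both (0.0173 and 0.0151), and under median-of-ratios or quantile scaling for LINC00256A (0.0466 and 0.0288) and under the latter for LINC00256B (0.0354). LINC00256A also passed with a replicate block (0.0439) and without the trend (0.0466).

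LINC00340, or CASC15, a long cancer susceptibility locus transcript (chromosome 6, 21666675 to 22194629), was at 1.31, 1.54 and 0.990 FPKM with control siRNA and 0.259, 0.313 and 0.660 with SET siRNA in the WT-labelled line. The KO-labelled levels were 0.669 and 0.781, then 0.0354 and 0.163. The last 2 values rest on 1 and 6 implied fragments, so no fold is given for that line. It fell by 0.70 (SE 0.131, adjusted p = 0.00166) and 0.65 (SE 0.160, adjusted p = 0.0116) on the log2 scale. Only WT-labelled control libraries had brought LINC00340 to FPKM 1, which favours a fall in the WT-labelled line. The KO-labelled call was lost without control library 2 (0.0601) or SET siRNA library 1 (0.0756).

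LINC00087 now matches SMIM10L2A and SMIM10L2B, a pair of closely similar small membrane protein genes on chromosome X (134229015 to 134232733 in the files). It was at 1.85, 1.64 and 1.37 FPKM with control siRNA and 0.772, 0.610 and 0.723 with SET siRNA in the WT-labelled line. KO-labelled libraries held 2.22 and 1.68, then 1.22 and 0.864, with no overlap in either line. It fell 2.31-fold (log2 -0.62, SE 0.109, adjusted p = 0.00113) and 1.87-fold (log2 -0.53, SE 0.133, adjusted p = 0.0129). The KO-labelled call was lost without control library 1 (0.0724) or SET siRNA library 2 (0.0934). Its transcript matches SMIM10L2A over its whole length at 92.4% identity, so its level is uncertain. The entry LINC00086, a former symbol of SMIM10L2A, fell short of the minimum and was not tested. With control and SET siRNA it was at 0.775 ± 0.162 and 0.849 ± 0.137 FPKM in the WT-labelled line. The KO-labelled means were 0.875 ± 0.313 and 0.380 ± 0.0415.

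LINC00294 (chromosome 11, 33097696 to 33101000) was at 6.36, 7.48 and 6.40 FPKM with control siRNA and 5.504, 5.76 and 5.42 with SET siRNA in the WT-labelled line. Its KO-labelled levels were 6.98 and 7.73, then 3.95 and 4.16. The KO-labelled SET siRNA libraries were the lowest of all 10. It fell by 0.24 (SE 0.0691, adjusted p = 0.0165) and 0.72 (SE 0.0846, adjusted p = 0.000258) on the log2 scale, a 1.21-fold and a 1.81-fold fall. The WT-labelled call was lost without control library 2 (0.0577) or SET siRNA library 3 (0.0508).

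**Figure D2:**
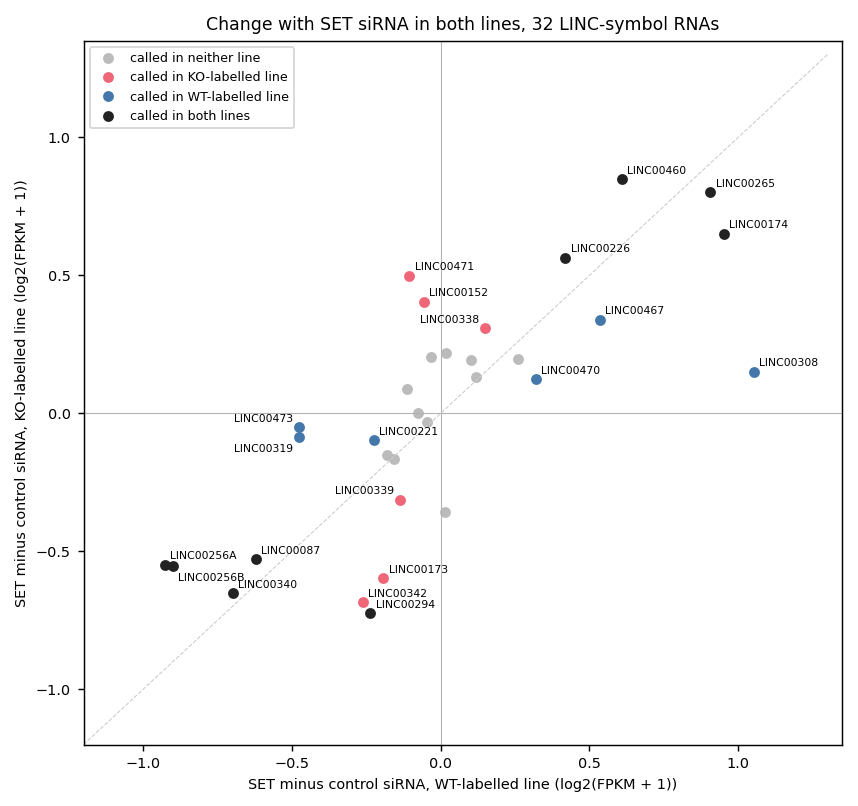
Change with SET siRNA on the log2(FPKM + 1) scale in the WT-labelled line (x axis) against the KO-labelled line (y axis) for the 32 RNAs, with colours for the line in which a change was called and a dashed line of equal change. LINC00265, LINC00174 and LINC00460 sit at the upper right and LINC00256A, LINC00256B, LINC00340 and LINC00087 at the lower left, while LINC00308 lies far to the right at 0.15 on the y axis.

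A further 6 of the 32 RNAs were called in the WT-labelled line and not in the KO-labelled line, as were 28.6% of all tested entries. For none of these 6 was the difference between the lines called. LINC00308 (chromosome 21, 23470936 to 23488847) had the largest rise. It was at 1.11, 0.744 and 1.63 FPKM with control siRNA and 3.42, 4.57 and 2.52 with SET siRNA in the WT-labelled line. KO-labelled libraries of either siRNA lay at 0.110 to 0.357 FPKM, from 1 to 4 implied fragments per library. The rise in the WT-labelled line was 3.01-fold (log2 1.05, SE 0.184, adjusted p = 0.00111), and the change in the KO-labelled line was 0.15 (adjusted p = 0.631). The difference between the lines was 0.90 (SE 0.291, adjusted p = 0.0579), and it passed without control library 3 (0.0335) or SET siRNA library 3 (0.0285) of the WT-labelled line.

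LINC00467 rose from 5.78 ± 0.913 to 8.85 ± 1.64 FPKM (SD, n = 3 each), a log2 change of 0.54 (adjusted p = 0.00813). LINC00470 rose from 5.82 ± 0.811 to 7.49 ± 0.605 (log2 0.32, adjusted p = 0.0342). Its call was lost without control library 1 or SET siRNA library 1 or 2 (0.117, 0.0771 and 0.110), under median-of-ratios or quantile scaling (0.0526 and 0.064) and with no filter (0.0615). LINC00473, a cyclic AMP-responsive RNA in other cells, fell from 0.972 ± 0.154 to 0.418 ± 0.134 FPKM (log2 -0.48, adjusted p = 0.0117). LINC00319 fell from 0.977 ± 0.199 to 0.419 ± 0.118 (log2 -0.48, adjusted p = 0.00312), and 92.4% of its transcript matches a second locus at 99.9% identity. LINC00473 and LINC00319 had reached FPKM 1 in WT-labelled control libraries only, so the rule that chose them favours these falls. LINC00221, which like LINC00226 lies in the immunoglobulin heavy chain region, fell from 8.15 ± 0.633 to 6.84 ± 0.655 (log2 -0.22, adjusted p = 0.0308). Its groups overlapped, and its call was lost without control library 1 or 3 or SET siRNA library 1 or 2 (0.0858, 0.0985, 0.110 and 0.0811). In the KO-labelled line these 5 changed by 0.34, 0.12, -0.05, -0.09 and -0.10 in the same order, with adjusted p of 0.137 to 0.826.

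Another 6 of the 32 were called in the KO-labelled line and not in the WT-labelled line, as were 11.4% of all tested entries. LINC00152 rose there 1.33-fold (78.5 ± 6.68 to 104 ± 0.341 FPKM, n = 2 each, log2 0.40, SE 0.0757, adjusted p = 0.00311), and changed by -0.06 in the WT-labelled line (adjusted p = 0.468). LINC00471 (chromosome 2, 232373137 to 232379050) went from 0.793 and 0.644 FPKM to 1.62 and 1.24, from 15 and 12 implied fragments to 29 and 29. LINC00471 had reached FPKM 1 in that SET siRNA group only, so the rule that chose it favours a rise here. It rose by 0.50 (SE 0.114, adjusted p = 0.0084), a call lost without control library 2 (0.0519) or SET siRNA library 1 (0.0705). LINC00338, or SNHG20, a small RNA host, overlaps the tested entries SCARNA16 and SEC14L1, so reads could have been shared. In the KO-labelled line SCARNA16 changed by 0.88 and SEC14L1 by -0.23 on the log2 scale (adjusted p = 0.0446 and 0.0053). LINC00338 itself rose there from 4.09 ± 0.224 to 5.30 ± 0.139 FPKM (log2 0.31, adjusted p = 0.0496). That call held in only 2 of the 10 fits that left out 1 library, those without control library 1 or 3 of the WT-labelled line, and in the others its adjusted p was 0.0556 to 0.179.

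LINC00342 fell from 5.15 ± 0.707 to 2.84 ± 0.611 FPKM (n = 2 each), 1.82-fold (log2 -0.69, SE 0.131, adjusted p = 0.00339). In the WT-labelled line its change was -0.26 (adjusted p = 0.062). That change passed without WT-labelled SET siRNA library 1 (0.0365) or KO-labelled SET siRNA library 1 or 2 (0.0414 and 0.0415), and under both other scalings (0.038 and 0.0307). For LINC00342, 92.1% of its transcript matches another locus at 96.7% identity. A stretch of 62.25% of the LINC00339 transcript matches AL031281.3 at 100% identity, so reads could have been shared and its level is uncertain. LINC00339, which lies near CDC42 and has been studied in endometriosis, fell from 12.8 ± 2.04 to 10.05 ± 0.379 FPKM (log2 -0.31, adjusted p = 0.0328). Its call was lost without control library 1 or either SET siRNA library (0.163, 0.0824 and 0.143). LINC00173 was at 1.63 and 0.964 FPKM, then 0.574 and 0.430 (log2 -0.60, adjusted p = 0.0305), and no SET siRNA library had brought it to FPKM 1. Its implied fragments were 11.4 and 9.61, then 3.8 and 13. They do not follow its FPKM, since the library lowest in FPKM has the most, so the support for the fall of LINC00173 is uncertain. Leaving out control library 1 or either SET siRNA library also ended its call (0.164, 0.0753 and 0.135).

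**Figure D3:**
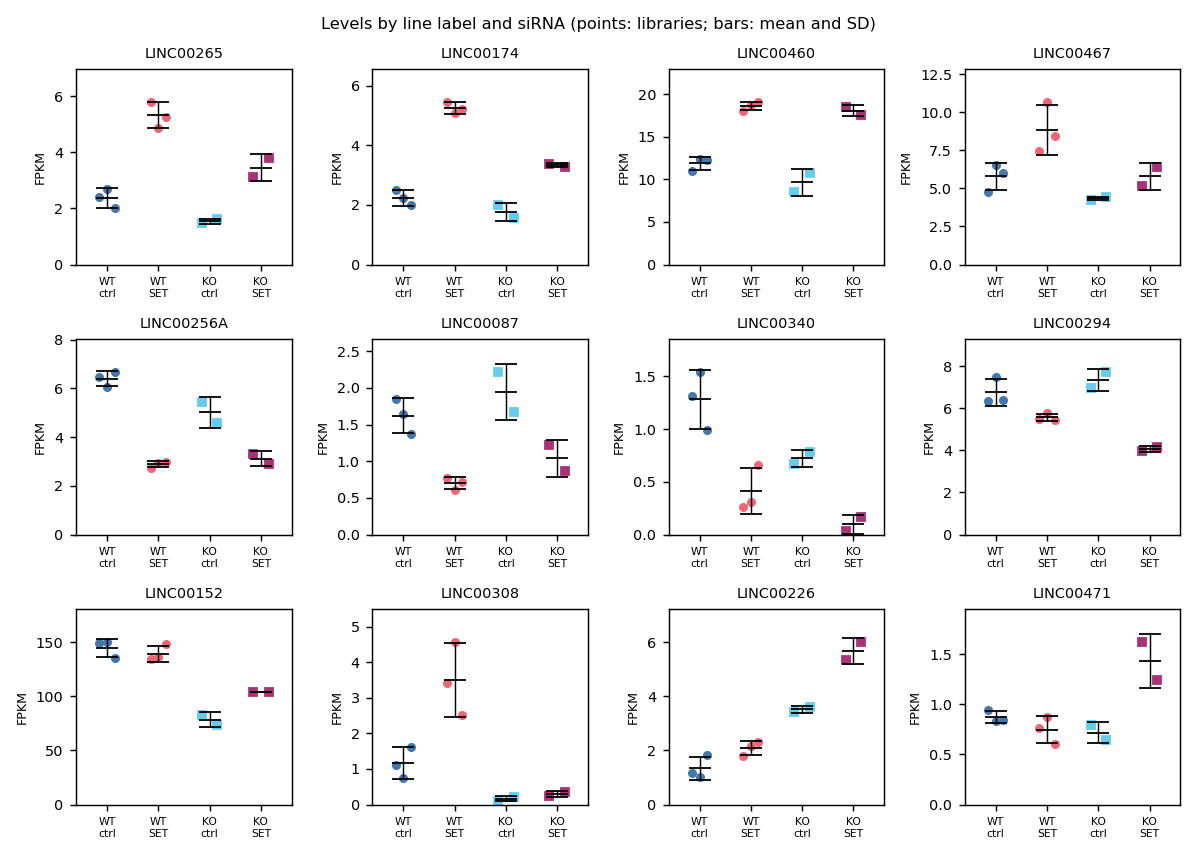
FPKM per library (points) with the group mean and SD (bars, n = 3 for WT-labelled and n = 2 for KO-labelled groups) for 12 RNAs described in the text, each on its own axis from 0. In LINC00265 and LINC00174 all SET siRNA points lie above all control points, in LINC00152 all KO-labelled points lie below all WT-labelled points, and in LINC00308 the WT-labelled SET siRNA points are the highest.

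By the interaction test, 3 of the 32 RNAs responded to SET siRNA unequally in the 2 lines. This is 9.38% against 19.1% of all tested entries (10.5% higher, 8.60% lower). LINC00471 was chosen through KO-labelled SET siRNA libraries alone, which favours a difference here. It had the lower response in the WT-labelled line (difference -0.60, SE 0.147, adjusted p = 0.0226). LINC00152 also had the lower response there (-0.46, SE 0.0978, adjusted p = 0.0137). LINC00294 fell less in the WT-labelled line (0.49, SE 0.109, adjusted p = 0.0167). Each call depended on single libraries: LINC00471 lost it without WT-labelled control library 1 (0.0513), KO-labelled control library 2 (0.0796) or KO-labelled SET siRNA library 1 (0.0987). LINC00152 lost it without KO-labelled SET siRNA library 1 (0.0532), and LINC00294 without that library (0.0719) or KO-labelled control library 2 (0.0572).

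With control siRNA, 12 of the 32 RNAs differed between the lines, 3 higher and 9 lower in the KO-labelled line. This is 37.5% against 47.9% of all tested entries (25.7% higher, 22.2% lower). With SET siRNA 17 differed, 6 higher and 11 lower, or 53.1% against 48.4% (23.6% higher, 24.8% lower). The median difference over the 32 RNAs was -0.15 and -0.08, beside 0.02 and -0.00 over all tested entries. The 2 comparisons share no library but use a common estimate of the spread. In both, 6 RNAs were called in the same direction (28.1% of all tested entries were), while none was called in opposite directions. LINC00152, LINC00308 and LINC00265 were lower in the KO-labelled line under both siRNAs, and LINC00226, LINC00221 and LINC00094 were higher. These comparisons share their libraries with those of SET siRNA described above.

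LINC00152 was 1.85-fold lower in the KO-labelled line with control siRNA (log2 -0.88, SE 0.0691, adjusted p = 1.69e-05) and 1.34-fold lower with SET siRNA (log2 -0.42, SE 0.0691, adjusted p = 0.000908). About 30.0% of its transcript matches the related MIR4435-2HG gene at 99.3% identity, so reads could have been shared. LINC00308 was lower by 0.87 (SE 0.206, adjusted p = 0.00741) and 1.77 (SE 0.206, adjusted p = 0.000108) on the log2 scale, from mean levels of 1.16 and 3.50 FPKM against 0.167 and 0.295. It had reached FPKM 1 in WT-labelled libraries only, so it was chosen through the line in which it is high. The call with control siRNA was lost with array weights (0.0539). LINC00265 was 1.54-fold lower under each siRNA (log2 -0.40, adjusted p = 0.0131, and -0.51, adjusted p = 0.00379), and the call with control siRNA was lost without KO-labelled control library 1 (0.0576).

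LINC00226 was 2.64-fold higher in the KO-labelled line with control siRNA (log2 0.97, SE 0.140, adjusted p = 0.000567) and 2.71-fold higher with SET siRNA (log2 1.11, SE 0.140, adjusted p = 0.000179). LINC00221, in the same immunoglobulin region, was 1.28-fold higher (8.15 ± 0.633 against 10.4 ± 0.00375 FPKM, adjusted p = 0.0123) and 1.41-fold higher (6.84 ± 0.655 against 9.67 ± 0.650, adjusted p = 0.00202). Its call with control siRNA was lost without KO-labelled control library 2 (0.0577). LINC00094, or BRD3OS, transcribed opposite the BRD3 gene, was 1.165-fold and 1.177-fold higher (adjusted p = 0.0181 and 0.0121). It lost these calls without KO-labelled control library 1 (log2 0.11) and KO-labelled SET siRNA library 2 (log2 0.20). BRD3, whose entry overlaps that of LINC00094, was also higher, by 0.29 and 0.34 on the log2 scale (adjusted p = 0.0055 and 0.0023). A stretch of 22.4% of the LINC00094 transcript matches BRD3 at 100% identity, so reads could have been shared.

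**Figure D4:**
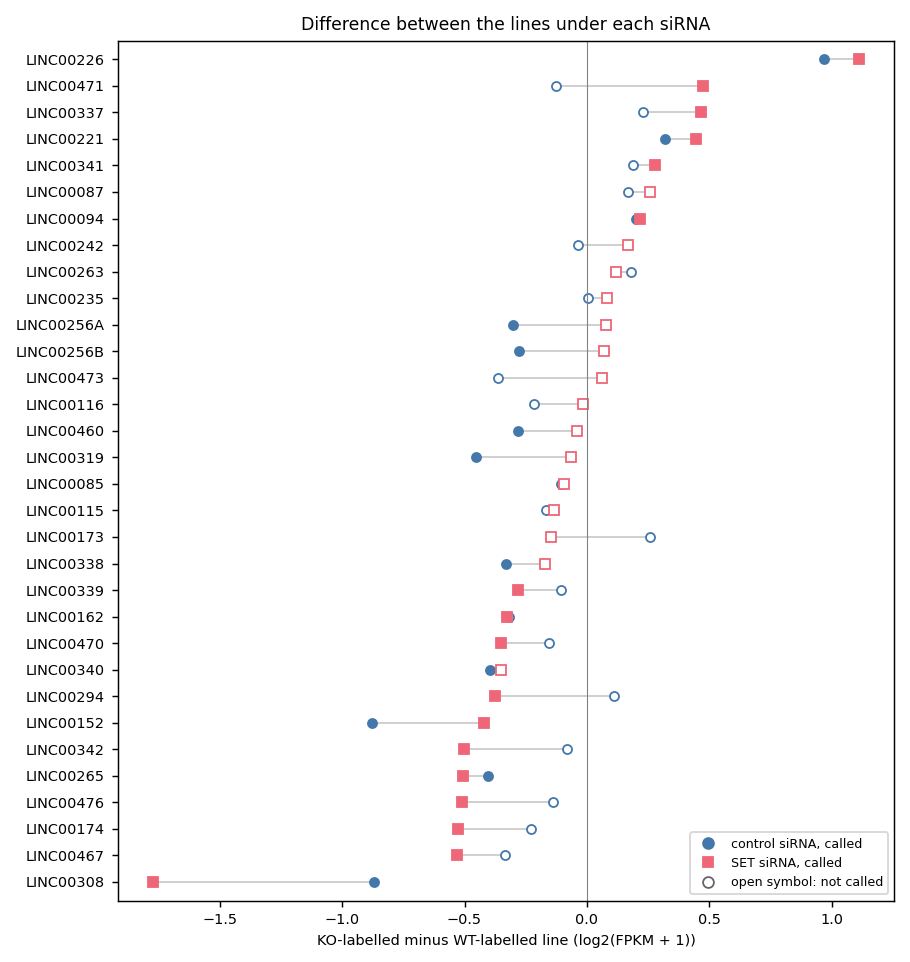
Difference between the KO-labelled and the WT-labelled line on the log2(FPKM + 1) scale (x axis) for each of the 32 RNAs (rows), with circles for control siRNA, squares for SET siRNA and filled symbols where it was called. LINC00226 stands at 0.97 and 1.11 and LINC00308 at -0.87 and -1.77, at the top and the bottom of the order.

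Other differences between the lines were called under a single siRNA. With control siRNA, LINC00319 (-0.45), LINC00340 (-0.40), LINC00338 (-0.33), LINC00256A (-0.30), LINC00460 (-0.28) and LINC00256B (-0.28) were lower in the KO-labelled line, with adjusted p of 0.00902 to 0.0488. SCARNA16 and SEC14L1, which overlap LINC00338, were at -1.11 and -0.09 (adjusted p = 0.0089 and 0.116). LINC00319 and LINC00340 had reached FPKM 1 in WT-labelled control libraries only, which favours a lower KO-labelled level. The LINC00340 call was lost with 0.1 rather than 1 added to FPKM (0.166), under quantile scaling (0.0947) and with a replicate block (0.0864). With 0.1 added, its difference with SET siRNA was called instead (-1.36, adjusted p = 0.021), on 1 and 6 implied fragments in the KO-labelled libraries. Each of these 6 calls was lost in at least 1 fit that left out a library. KO-labelled control library 2 ended those of LINC00319 (0.0531), LINC00256A (0.134), LINC00256B (0.198), LINC00338 (0.125) and LINC00340 (0.119). KO-labelled control library 1 ended those of LINC00460 (0.162) and LINC00340 (0.166). The WT-labelled control libraries 1 and 2 ended those of LINC00338 (0.0688 and 0.0648) and LINC00340 (0.106 and 0.133), library 2 that of LINC00460 (0.0655), and library 3 those of LINC00460 (0.0598) and LINC00256B (0.0605). Leaving out any 1 of KO-labelled SET siRNA libraries 1 and 2 or WT-labelled SET siRNA libraries 1 and 2 also ended the LINC00340 call (0.0502 to 0.0607).

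With SET siRNA, 8 RNAs were called lower in the KO-labelled line and not with control siRNA: LINC00467 (-0.53), LINC00174 (-0.53), LINC00476 (-0.51), LINC00342 (-0.50), LINC00294 (-0.38), LINC00470 (-0.35), LINC00162 (-0.33) and LINC00339 (-0.28). With control siRNA LINC00162 differed by nearly as much (-0.32, adjusted p = 0.0534), so its difference was not particular to SET siRNA. The control siRNA difference passed under median-of-ratios scaling (0.046) and with a replicate block (0.00383). The SET siRNA call of LINC00162 was lost under median-of-ratios and quantile scaling (0.0522 and 0.0532), with no filter (0.079) and without the trend (0.057). LINC00174 (adjusted p = 0.0012) and LINC00294 (0.00317) kept the call in every fit that left out a library. KO-labelled SET siRNA library 1 ended those of LINC00467 (0.134), LINC00342 (0.0757), LINC00470 (0.0542) and LINC00339 (0.0716). KO-labelled SET siRNA library 2 ended those of LINC00476 (0.0715), LINC00470 (0.254), LINC00162 (0.344) and LINC00339 (0.146). The calls of LINC00470, LINC00162 and LINC00339 were also lost without WT-labelled SET siRNA library 1 (0.0862, 0.128 and 0.0753) or 2 (0.114, 0.0651 and 0.0774). Those of LINC00162 and LINC00470 were further lost without WT-labelled control libraries 1 or 3 and SET siRNA library 3 (0.0548, 0.0626 and 0.0802), and without control library 2 (0.0511), in that order.

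LINC00471 (0.48, adjusted p = 0.00454), LINC00337 (0.47, adjusted p = 0.0151) and LINC00341 (0.28, adjusted p = 0.0386) were higher in the KO-labelled line with SET siRNA alone. All 3 had reached FPKM 1 in KO-labelled libraries only, so the rule that chose them favours this direction. LINC00337, the divergent transcript of ICMT, was at 0.417, 0.781 and 0.837 FPKM in the WT-labelled and 1.14 and 1.48 in the KO-labelled libraries. LINC00471 lost its call without KO-labelled SET siRNA library 1 (0.0541) and LINC00337 without library 2 (0.127). LINC00341 lost it without either (0.0787 and 0.202), and without WT-labelled SET siRNA library 1 or 2 (0.0764 and 0.107) or control library 1 (0.0527).

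Among all 5 comparisons, 6 of the 32 RNAs were called in none, as were 17.1% of all tested entries: LINC00116, LINC00263, LINC00085, LINC00235, LINC00242 and LINC00115. LINC00116, now MTLN, encodes mitoregulin, a small protein of the inner mitochondrial membrane, and it held at 8.93 to 13.7 FPKM with changes of 0.02 and 0.22 (adjusted p = 0.887 and 0.203). Without KO-labelled control library 1, in which it stood higher than in its partner library, its rise in the KO-labelled line passed (0.0262), as did its difference between the control libraries of the lines (0.0165). LINC00263, or OLMALINC, was at 6.82 to 10.3 FPKM and changed by 0.26 and 0.20 (adjusted p = 0.0537 and 0.24), and the former passed without WT-labelled control library 1 (0.0355) or SET siRNA library 1 (0.00515). A stretch of 78.2% of its transcript matches a SOD2 transcript at 92.9% identity. The other 4 had all their values between 0.544 and 3.97 FPKM.

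The nearest tested entry without a LINC symbol within 100 kb, or the entry that overlaps, was found for 26 of the 32 RNAs by the files' coordinates. LINC00256A and LINC00256B were therefore not paired with each other. LINC00338 overlaps SEC14L1 and SCARNA16, and only SEC14L1 was used for its pair. The RNA and its neighbour changed in the same direction with SET siRNA in 13 of 26 pairs in the WT-labelled and 12 of 26 in the KO-labelled line. Across the pairs Pearson's r was 0.05 and 0.13 and Spearman's rho -0.01 and 0.01, where all points come from the same libraries and LINC00256A and LINC00256B share 1 neighbour. LINC00294 and TCP11L1, 2587 bases away, moved by similar amounts: -0.24 and -0.27 in the WT-labelled line, and -0.72 and -0.75 in the KO-labelled line (adjusted p for TCP11L1 = 0.00127 and 3.15e-05). TCP11L1 also had a called interaction of 0.48 (adjusted p = 0.00406), beside 0.49 for LINC00294. Without a stated strand, reads of neighbours that overlap or abut cannot be told apart.

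LINC00340 and SOX4, a transcription factor gene 67825 bases away, both fell: -0.70 and -0.87 in the WT-labelled and -0.65 and -0.39 in the KO-labelled line (adjusted p for SOX4 = 4.67e-06 and 0.00316). LINC00174 and TPST1, a tyrosine sulphation enzyme gene 15593 bases away, both rose, TPST1 by 0.43 and 0.30 (adjusted p = 8.95e-05 and 0.00449). The FAM225 copies went against SLC31A2, 31112 bases from LINC00256A, which rose by 0.53 and 0.32 (adjusted p = 0.000483 and 0.0282). LINC00265 rose while RALA, 25444 bases away, changed by -0.04 and -0.10 (adjusted p = 0.477 and 0.219). SCD, a fatty acid desaturase gene 8745 bases from LINC00263, fell by 0.44 in the WT-labelled line and rose by 0.24 in the KO-labelled line (adjusted p = 1.42e-05 and 0.00335), beside uncalled changes of 0.26 and 0.20 for LINC00263. LINC00152, LINC00460, LINC00226, LINC00221, LINC00308 and LINC00473 had no tested neighbour without a LINC symbol in that window.

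**Figure D5:**
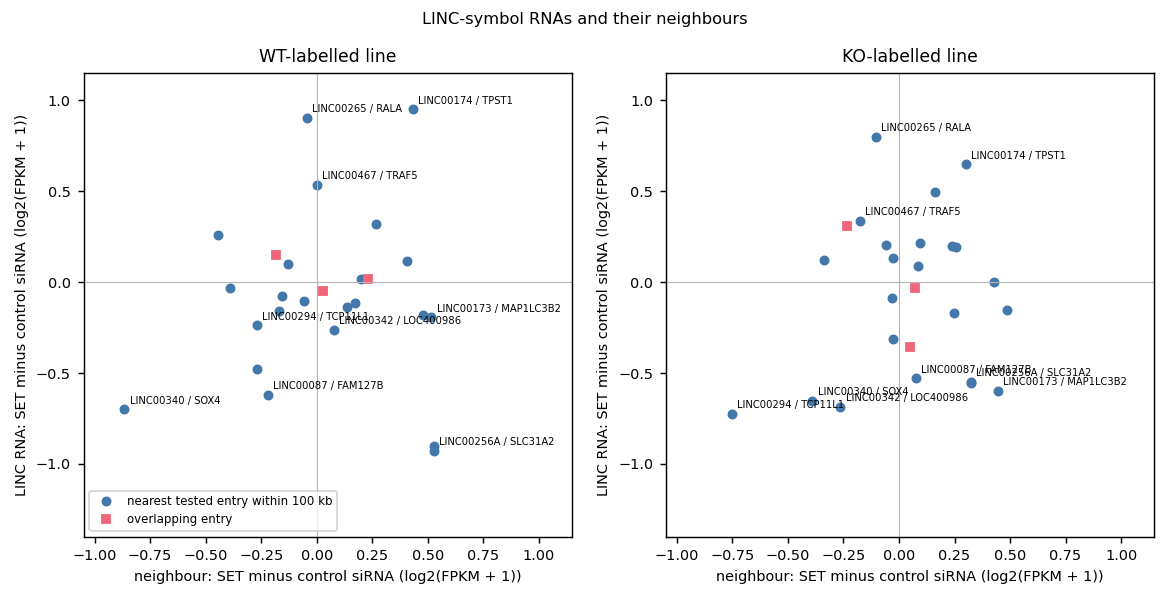
Change with SET siRNA of the overlapping or nearest tested neighbour within 100 kb (x axis) against that of the RNA (y axis), on the log2(FPKM + 1) scale, in each line. Entries with LINC symbols were not used as neighbours. LINC00294 and TCP11L1 moved by nearly equal amounts in both panels, LINC00256A and SLC31A2 in opposite directions, and the points as a whole follow no line (Pearson's r 0.05 and 0.13).

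Differences between the lines were also set beside the tested entries within 1 Mb. Around LINC00152 the median difference of 11 entries was 0.15 with control siRNA and -0.17 with SET siRNA, beside -0.88 and -0.42 for LINC00152 itself. Around LINC00226 the median of 7 entries was 0.06 and 0.46, beside 0.97 and 1.11. Around LINC00221 that of 3 entries was -0.02 and 0.64, beside 0.32 and 0.45. A single entry lay within 1 Mb of LINC00308, at 0.74 and 0.49, beside -0.87 and -1.77. Over all called RNAs, the surrounding median had the sign of the RNA's own difference for 7 of 12 with control siRNA and 12 of 17 with SET siRNA. It was of similar size for LINC00338 with control siRNA (21 entries, -0.32 beside -0.33) and LINC00470 with SET siRNA (6 entries, -0.24 beside -0.35). The copies LINC00256A and LINC00256B share 18 entries at -0.17 with control siRNA, beside -0.30 and -0.28. For LINC00265 the median of 8 entries was 0.26 and 0.09, beside -0.40 and -0.51. For LINC00094 that of 21 entries was 0.04 and 0.11, beside 0.20 and 0.22. The BRD3 entry, which overlaps LINC00094, was at 0.29 and 0.34.

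Lists of related RNAs place these values. Of 5 LINC RNAs linked to p53 in the literature, LINC00261 was the one analysed here, and it did not reach the FPKM minimum for testing. Of 17 LINC RNAs studied in tumour cells, 13 had values here and 6 were tested. With SET siRNA, 2 of these 6 rose and 1 fell in the WT-labelled line (median -0.10). In the KO-labelled line 2 rose and 2 fell (median 0.14). Over all tested entries 30.8% rose and 24.0% fell in the WT-labelled line (median 0.04). The KO-labelled shares were 19.8% and 17.9% (median 0.02). In the KO-labelled against the WT-labelled line, 2 were lower with control siRNA and 3 with SET siRNA (medians -0.31 and -0.21), and none was higher. Over all tested entries 22.2% and 24.8% were lower and 25.7% and 23.6% higher (medians 0.02 and -0.004). A list of 6 RNAs is too short to read a direction from. Of 9 LINC symbols later given to small-protein genes, LINC00087 and LINC00116 were tested, and LINC00087 alone was called.

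Among 26 long noncoding RNAs known under other names, 18 were tested. With SET siRNA 7 rose and 5 fell in the WT-labelled line (median 0.22), beside 30.8% and 24.0% of all tested entries. In the KO-labelled line 3 rose and 5 fell (median -0.01), beside 19.8% and 17.9%. GAS5, a host of small nucleolar RNAs, rose from 52.9 ± 1.68 to 151 ± 6.82 FPKM in the WT-labelled line (log2 1.498, adjusted p = 2e-07) and 55.7 ± 3.88 to 156 ± 10.3 in the KO-labelled line (log2 1.47, adjusted p = 3.28e-06). MIAT fell by 0.93 and 1.19 (adjusted p = 1.86e-05 and 4.38e-05). The entry of NEAT1, an RNA of nuclear paraspeckles, spans only 65190269 to 65194003 on chromosome 11. NEAT1 rose by 0.68 in the WT-labelled line and changed by 0.22 in the KO-labelled line (adjusted p = 2.6e-05 and 0.0524), with a called difference of 0.47 (adjusted p = 0.0143). It was lower in the KO-labelled line by 0.82 and 1.28 under control and SET siRNA (adjusted p = 2.92e-05 and 1.18e-06).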

How the data were processed

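Total RNA from 10 libraries was sequenced from TruSeq libraries, per the labels' protocols. The submitters' processing notes name bcl2fastq 1.8.4, TopHat2 2.0.4 and Cufflinks 2.0.2, whereas build, annotation and strand were not given in the sources used here. The deposited values are FPKM per gene with an interval and a status, made by the authors with Cufflinks, per the file headers. Coordinates are those of the files, counted from 1. Depth was not stated, and fragments behind low values were implied from the authors' intervals.

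The 14813 entries that reached FPKM 1 in 2 or more libraries were tested on log2(FPKM + 1) with limma 3.58.1 in R 4.3.3 (lmFit, contrasts.fit, eBayes with trend) over all 10 libraries in 4 groups. Adjusted p is Benjamini-Hochberg over all tested entries, and values below 0.05 were called. This scale understates changes of low genes. The procedure was tested on simulated data. The 5 contrasts were SET siRNA in each line, their difference (WT-labelled minus KO-labelled response) and KO-labelled against WT-labelled under each siRNA.

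Named RNAs were the called ones with the largest changes (up to 10 per direction and comparison), the 6 most abundant, and tested members of LINC lists, with their nearest neighbours. RNAs called in no comparison, those at the edge of the rule, LINC00337's values and the examples among other noncoding RNAs were chosen after their values were seen. The RNAs and lists were chosen with earlier results of these data known. Transcript likeness came from BLAST 2.17.0 on GENCODE transcripts. Alternatives were another pseudocount, other filters, scalings and fits, a replicate block, array weights and leaving out each library.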

Additional observations from a re-analysis of the deposited data

Results flagged for a closer look

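By the interaction test in limma, 3 RNAs responded to SET siRNA unequally in the WT-labelled and KO-labelled lines. The difference (WT-labelled minus KO-labelled response, log2 scale) was -0.60 for LINC00471, -0.46 for LINC00152 and 0.49 for LINC00294. LINC00471 changed by -0.10 in the WT-labelled and 0.50 in the KO-labelled line, LINC00152 by -0.06 and 0.40, and LINC00294 by -0.24 and -0.72. LINC00471 had reached FPKM 1 in the KO-labelled SET siRNA group only, so the rule that chose it favours its difference. All 3 calls were lost without KO-labelled SET siRNA library 1 (adjusted p = 0.0987, 0.0532 and 0.0719). Those of LINC00471 and LINC00294 were also lost without KO-labelled control library 2 (0.0796 and 0.0572), and that of LINC00471 without WT-labelled control library 1 (0.0513).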

How the results depend on the processing

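Of the 62 calls over the 5 comparisons, 28 held under every alternative run and 34 were lost under at least 1, with no change of direction. Leaving out 1 library at a time gave 12 to 16 called RNAs for SET siRNA in the WT-labelled line (15 with all libraries), 10 to 15 in the KO-labelled line (15), and 0 to 5 for the interaction (3), with 5 without KO-labelled control library 1 and 0 without KO-labelled SET siRNA library 1. For the KO-labelled against the WT-labelled line it gave 7 to 12 with control siRNA (12), the 7 without KO-labelled control library 2, and 10 to 17 with SET siRNA (17), with 11 and 10 without KO-labelled SET siRNA library 1 and 2. Quantile normalization called 5 interactions. With control siRNA the lines differed in 7 RNAs both when only the libraries compared were fitted and with array weights, which also ended the call of LINC00308 (adjusted p = 0.0539). For SET siRNA in the KO-labelled line, fitting only the libraries compared ended the calls of LINC00087, LINC00173, LINC00338 and LINC00339 (0.0502 to 0.116), and array weights those of LINC00173, LINC00226 and LINC00338 (0.0517 to 0.102). Using no filter ended LINC00221 and LINC00470 in the WT-labelled line and LINC00338 and LINC00339 in the KO-labelled line (0.0504 to 0.0863), and median-of-ratios scaling ended LINC00338 there (0.0604). The cause was not tested for any of these, apart from the fewer libraries that some of the fits hold. No scaling moved the median of all entries by over 0.07. Correlations of the deviations of same-numbered libraries between siRNA groups were -0.0833, -0.0261 and 0.0728 in the WT-labelled and 0.00325 in the KO-labelled line. Between the lines they were 0.217 and 0.228 for control siRNA and 0.0436 and 0.0674 for SET siRNA. The control libraries thus deviated together by number across the lines, but over 2 pairs only, and no label says that a number marks a shared batch or day, so the numbers were not taken to pair the libraries. A replicate block gave 16, 16, 4, 14 and 15 calls in the 5 comparisons. The stricter filter left out RNAs with a mean under 1 FPKM, so they have no value there. Depth limits most the RNAs near 1 FPKM, such as LINC00308 and LINC00340, where single fragments carry a value.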
